A study of Homo sapiens with 18 samples.

Results

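The 2 keratin gene clusters of the human genome were examined for open chromatin in PC9, an established human lung adenocarcinoma line (non-small cell lung cancer) whose growth depends on mutant EGFR. The assay was ATAC-seq: a transposase cuts and tags DNA where chromatin is accessible, and pileups of the tagged fragments are called as peaks. The clusters were taken as 2 fixed windows of hg19. The type II window was chr12:52.55-53.40 Mb (850 kb), which also holds KRT18, and the type I window was chr17:38.80-39.80 Mb (1000 kb). Peaks of all 18 libraries were merged wherever they shared at least 1 bp. This gave 91 regions in the windows, of 79483 on chromosomes 1 to 22 and X, with 56 in the type II window and 35 in the type I window. A stretch of 80 kb at chr12:53.28-53.36 Mb, called the KRT8/KRT18 end here, held 8 of the 56, and the other 48 made up the rest of the type II window.

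The libraries formed 6 groups of 3, marked a, b and c in the labels. PC9 was the unsorted population given the vehicle DMSO. DTP (drug-tolerant persisters) were PC9 cells that survived 8 days of 1 µM erlotinib, an inhibitor of the EGFR kinase, in medium renewed with the drug. The other 4 groups were PC9 cells kept for 12 h in DMSO or in 1 µM erlotinib and then sorted by flow cytometry with Aldefluor, a dye that becomes trapped in cells by aldehyde dehydrogenase (ALDH) activity, into an ALDH-low and an ALDH-high fraction. All cells were cryopreserved and thawed before tagmentation, and all groups come from 1 line. No label says whether a, b and c were separate cultures, so each p-value refers to variation among libraries, part of which may be technical. The design compares the parental population, its persisters and the ALDH fractions with and without drug.

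Keratins are the intermediate filament proteins of epithelial cells. Each filament pairs a type I (acidic) with a type II (basic) keratin, and the genes of each type lie side by side in 1 cluster, apart from the type I gene KRT18, which sits next to KRT8 at the edge of the type II cluster. KRT8 and KRT18, with KRT7 and KRT19, are the keratins of simple epithelia such as the lining of the lung alveoli and of adenocarcinomas. The neighbouring genes serve stratified epithelia (KRT5 and KRT14 in basal cells, KRT6 genes, KRT16 and KRT17 in wounded or proliferating epidermis, KRT1 and KRT10 in upper layers) or hair and its root sheath.

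In the gene order of RefSeq (GRCh38.p14), the type II cluster runs from KRT80 to KRT8 and KRT18 with 27 keratin genes and 8 keratin pseudogenes. The type I cluster runs from KRT222 to KRT17 with 28 keratin genes, 4 pseudogenes and 34 keratin-associated protein genes, which encode matrix proteins of hair. Gene positions of hg19 were not used here, so regions are named by position and none is assigned to a gene beyond the KRT8/KRT18 end as defined. For the same reason the label of the cell line could not be checked at marker genes. Every library had a call in that end, but none is assigned to KRT8 or KRT18, so these calls do not check the label.

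RefSeq promoter sequences of KRT8 and of another gene of the cluster, KRT3, are printed as examples: the 250 bases upstream of the start, 5′ to 3′. Capitals mark matches on either strand to the TATA box, GC box, AP-1, TEAD or ETS letters given after them. The KRT8 sequence lies on the minus strand at chr12:52926470-52926719 and that of KRT3, a keratin of the cornea, on the minus strand at chr12:52796118-52796367, both of GRCh38.p14. Each belongs to an annotated start, and whether that is the main start of the gene was not checked. KRT3 was chosen after its letters were seen, as the nearest gene before KRT8 in gene order with a TATA box. Their difference in the TATA box was thus set by the choice and does not show that KRT8 is unusual in the cluster.
KRT8: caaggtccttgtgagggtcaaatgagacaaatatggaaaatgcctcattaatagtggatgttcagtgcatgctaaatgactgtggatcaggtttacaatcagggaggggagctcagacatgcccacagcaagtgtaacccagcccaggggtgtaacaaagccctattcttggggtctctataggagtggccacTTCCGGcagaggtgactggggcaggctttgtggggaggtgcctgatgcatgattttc
KRT3: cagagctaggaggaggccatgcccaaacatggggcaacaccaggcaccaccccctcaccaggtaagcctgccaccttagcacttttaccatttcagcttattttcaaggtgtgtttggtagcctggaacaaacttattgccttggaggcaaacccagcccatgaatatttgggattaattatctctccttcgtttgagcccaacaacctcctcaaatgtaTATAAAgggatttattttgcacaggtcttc
The capitals of KRT8 are a single ETS core (CCGGAA on the opposite strand), starting 57 bases upstream, and those of KRT3 are a TATA box starting 30 bases upstream. Of the 55 keratin genes, 34 had a promoter entry (KRT7, KRT18 and KRT19 had none). Below, a keratin gene counted if any of its promoter entries matched, while the share over all promoters was taken per entry. The TATA box (TATAAA) stood in 21 of the 34 (61.8%), against 10.7% of all 35116 promoters. The GC box (GGGCGG) showed the opposite, in 4 of 34 (11.8%) against 42.6%. The AP-1 letters TGANTCA were in 0 of 34 against 6.57%, the TEAD letters GGAATG in 5 (14.7%) against 11.9%, the ETS core in 3 (8.82%) against 14.5%, and the E-box CANNTG in 27 (79.4%) against 61.8%. Median GC content was 45% over 38 keratin promoters and 58% over all. Both strands were searched, TGANTCA and CANNTG read the same on either strand in their fixed letters, and a match describes letters, not binding. These GRCh38 positions cannot be set against the hg19 regions.

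Fewer keratin regions than regions genome-wide were common to every library, and their calls had lower scores. Only 6 of the 91 regions (6.59%) were held, that is called with at least 1 peak, by all 18 libraries, against 17.7% of all regions. A single library held 18 (19.8%), near the 21.2% of all regions, and the median region was held by 7 libraries in the keratin windows and by 6 over all. Peak strength was read as a within-list percentile, the share of a library's peaks with a deposited score at or below that of the region. The median over the keratin calls was the 31.4th percentile, against 50.4 over all calls, and the highest was 91.5. Lists differ in length, and a longer list reaches further down, so percentiles of different groups are given as descriptions and do not by themselves order the groups. Keratin regions were of ordinary width, with a median of 1034 bp against 999 bp. A call in a bulk library does not tell a site open in few cells from one slightly open in many.

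**Figure D1:**
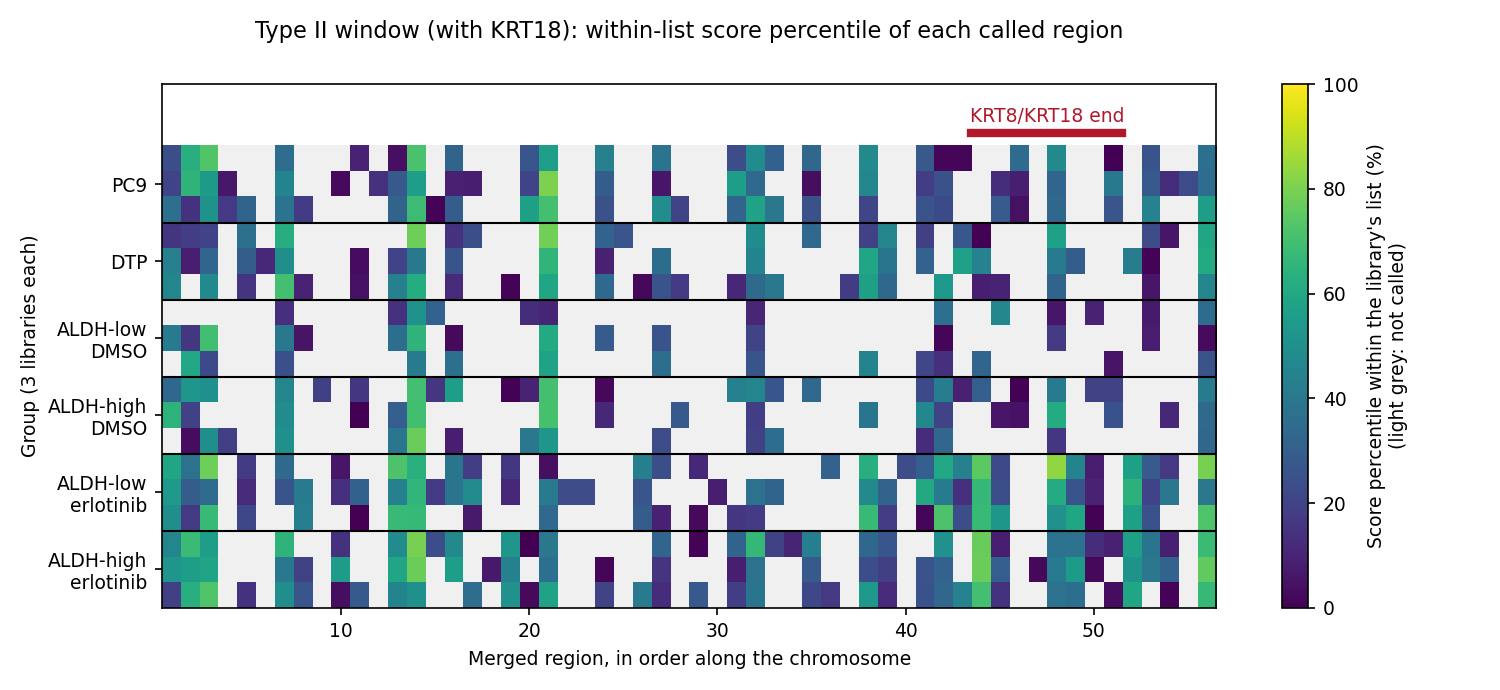
Calls in the type II window. Columns are the 56 merged regions in order along the chromosome, rows are the 18 libraries by group (3 each, a to c from top to bottom), colour is the score percentile within the library's list and light grey means not called. The red bar marks the KRT8/KRT18 end, where the ALDH-low and ALDH-high erlotinib rows hold 5 or 6 of 8 regions and the ALDH-low DMSO rows 1 to 3.

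Long stretches of both clusters had no call in any library. The widest gaps between regions of the type II window were chr12:53082234-53188054 (105.8 kb), chr12:52977176-53048954 (71.8 kb) and chr12:52740242-52789550 (49.3 kb). In the type I window they were chr17:39368978-39516620 (147.6 kb), chr17:38851384-38974902 (123.5 kb) and chr17:39114870-39204573 (89.7 kb). Of 50-kb bins, 1 of 17 in the type II window and 6 of 20 in the type I window lacked a region. The 3 type I regions that all 18 libraries held lay in the last 3 of those bins.

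Of the end, the rest of the type II window and the type I window, the end had the largest share of its bases under peaks in 16 of the 18 libraries. Its share of bases under peaks exceeded that of the rest of the type II window in 16 of 18 libraries, with a median ratio of 2.49 (range 0.531 to 3.64). The mean difference, end minus rest, was 3.64 percentage points, 2.33 with peaks of a score of at least 100 and 1.93 at equal list length. Against the genome (bases from the chromosome start to the last peak, chromosomes 1 to 22 and X) the end was above 1 in 18 of 18 libraries, with a median of 4.75 (1.03 to 8.28). The rest of the type II window had a median of 2.01 (1.16 to 2.60) and the type I window 0.933 (0.459 to 1.25), above 1 in 6 of 18. The libraries below 1 for the end against the rest were ALDH-low DMSO b and ALDH-high DMSO c, each with 1 region called in the end. High cover did not mean strong peaks: calls in the end had a median percentile of 29.5.

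One region of the end was near constant. chr12:53318543-53321785 (3243 bp) was held by 17 libraries, missing from ALDH-low DMSO c alone. Its percentiles were 48.0, 32.5 and 33.8 in PC9, 57.3, 41.1 and 32.2 in DTP, 5.91 and 16.8 in ALDH-low DMSO, 41.1, 61.6 and 16.0 in ALDH-high DMSO, 83.4, 61.6 and 50.7 in ALDH-low erlotinib and 37.4, 41.3 and 37.9 in ALDH-high erlotinib. Each group thus had calls here, with percentiles spread widely within most groups.

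Other regions of the end differed in call between groups. chr12:53288586-53291132 (2547 bp) was in 0 of 3 PC9 libraries, in all 3 DTP at percentiles 0.47, 44.5 and 8.57, and in 1 library of each DMSO fraction (32.5 in ALDH-low c, 30.1 in ALDH-high a). After 12 h of erlotinib it was in all 6 libraries, at 74.7, 66.6 and 67.2 (ALDH-low) and at 76.6, 77.6 and 70 (ALDH-high). The 6 erlotinib values lay between 66.6 and 77.6, and the highest of the other groups was 44.5, in DTP b. Lists differ in length and this region had no rank test, so these values are a description. chr12:53338971-53340342 (1372 bp) was absent from PC9 and from all 6 DMSO libraries, present in DTP b alone (29.5), and in all 6 erlotinib libraries, at 45.1, 26.0 and 59.3 in ALDH-low and 37.2, 54.5 and 36.3 in ALDH-high cells. chr12:53363242-53364762, which starts just beyond the end, had the same calls: DTP b (42.2) and all 6 erlotinib libraries, at 57.0, 64.3, 56.9, 56.8, 51.2 and 58.9. Both regions therefore separated erlotinib from DMSO in both fractions without overlap. They were 2 of the 80 keratin regions held in any sorted library (2.5%), against 1.55% of all regions. At equal list length 1 of 63 was left, against 0.940% of all regions.

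The remaining regions of the end were weaker. chr12:53297366-53299587 was held by 2 PC9, 1 DTP, 1 ALDH-low DMSO and 1 ALDH-high DMSO library and by all 6 erlotinib libraries, at percentiles from 8.34 to 52.8 in the latter. chr12:53342278-53343831 was in no PC9 or DTP library, in 1 of each DMSO group (9.48 and 19.4), and in 3 ALDH-low and 2 ALDH-high erlotinib libraries at 0.46 to 13.0. chr12:53301411-53302444 was called in ALDH-high erlotinib b only (2.13). chr12:53299698-53300836 was held by PC9 a, b and c (34.9, 8.59 and 4.31) and by ALDH-high DMSO a and b (0.64 and 5.02). None of the 9 libraries that had met erlotinib held it, but it was also absent from every ALDH-low DMSO library and from ALDH-high DMSO c. chr12:53350560-53351412 was in all 3 PC9 libraries (0.28, 40.5 and 26.4), in ALDH-low DMSO c (5.34), ALDH-high DMSO a and b (19.3 and 25.2) and ALDH-high erlotinib a and c (9.18 and 3.36), and in no DTP or ALDH-low erlotinib library. Several of these calls sit near the bottom of their lists, where a small change in depth can make or remove a peak, and depth is unknown.

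Outside the end, the regions held by all 18 libraries were chr12:52673616-52675496, chr12:52836016-52837290 and chr12:53399510-53401255, the last of which crosses the window's edge, and in the type I window chr17:39677169-39679454, chr17:39703283-39706644 and chr17:39768647-39769789. chr17:39677169-39679454 had the highest percentile of both windows. It stood at 70.5, 81.9 and 86.0 in PC9, 70.8, 63.9 and 54.2 in DTP, 43.2, 48.2 and 34.5 in ALDH-low DMSO, 70.1, 64.8 and 79.1 in ALDH-high DMSO, 80.2, 82.1 and 91.5 in ALDH-low erlotinib and 83.4, 54.6 and 84.9 in ALDH-high erlotinib. Ranked among the regions common to the sorted libraries, ALDH-low DMSO (17.5, 22 and 10.9) overlapped ALDH-high erlotinib, whose library b stood at 18.1. chr12:52673616-52675496 ranged from 40.5 to 79.5, and passed no rank test. The widest of the 91, chr17:39703283-39706644 (3362 bp), ranged from 11.2 to 81, and chr17:39768647-39769789 from 16.4 to 74.8.

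The best-held regions of some other bins were in 14 to 17 libraries. Near the start of the type II window these were chr12:52579279-52580652 and chr12:52584854-52586765 (16 libraries each) and chr12:52608826-52610179 (17, up to 70.2 in DTP c). Further along came chr12:52720994-52722055 (14), chr12:53065758-53066835 (17), chr12:53240985-53242124 (14) and chr12:53267377-53268796 (16, in 1 of 3 DTP libraries and in all others). In the type I window, chr17:39071249-39072627 and chr17:39573577-39574527 were held by 14 libraries each. Elsewhere in the type II window the best-held regions were in fewer libraries: chr12:52889887-52891047 in 11, chr12:52914904-52917161 in 13, chr12:53048955-53050267 in 9, chr12:52974793-52975650 in 4 (erlotinib libraries alone) and chr12:52789551-52790002 in 1. In the type I window they were chr17:39296779-39297685 and chr17:39620723-39621711 in 10 each, chr17:39112842-39113627 and chr17:39536108-39536926 in 7 each, chr17:38804060-38804887 and chr17:39204574-39205291 in 3 each, chr17:38850806-38851383 in 2, and chr17:38974903-38975462 and chr17:39368463-39368977 in 1 each.

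**Figure D2:**
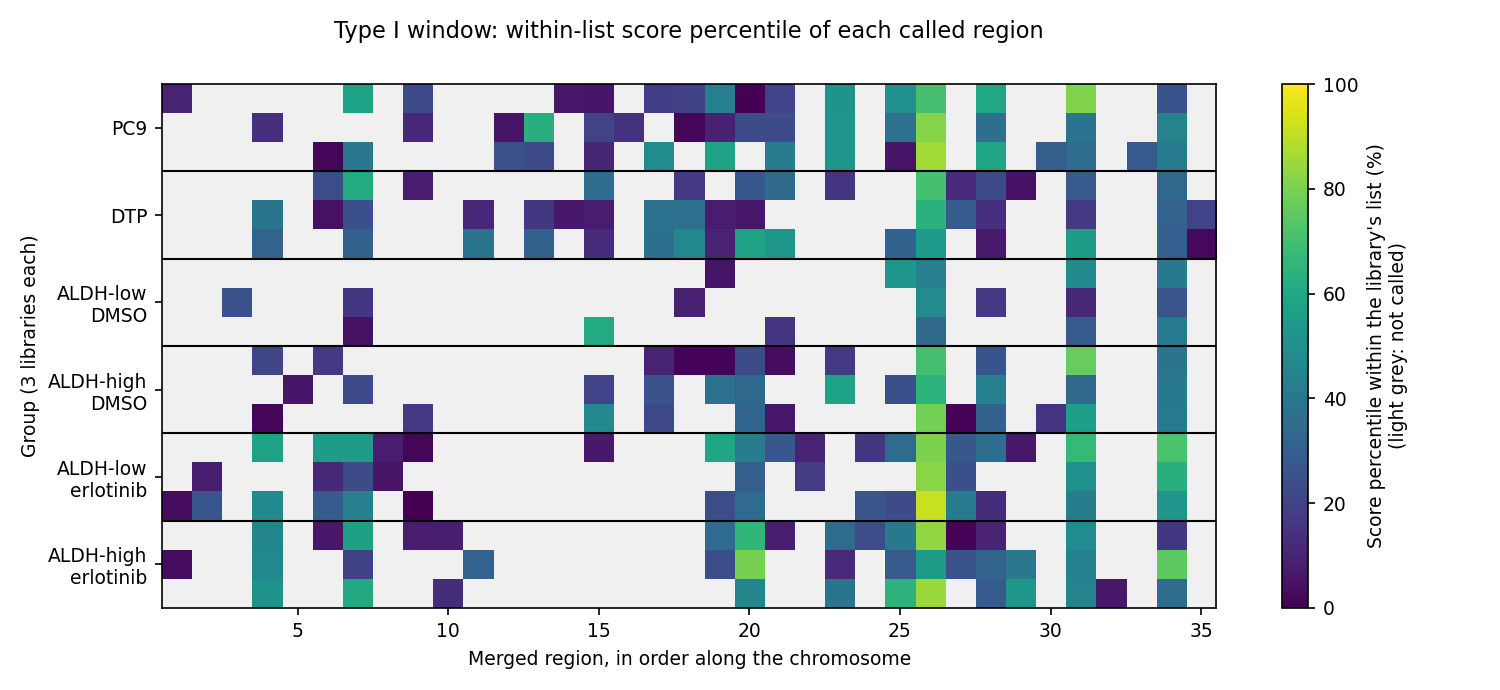
Calls in the type I window, drawn as for the type II window (35 regions). Regions 26, 31 and 34, toward the right edge, are called in all 18 libraries, and the ALDH-low DMSO rows hold 5 to 7 regions against 10 to 18 in the rows of the other groups.

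Library size moved with the groups and bears on every count. Lists held 26225 to 26438 peaks in ALDH-low DMSO, 30336 to 32819 in ALDH-high DMSO, 32583 to 40670 in ALDH-low erlotinib, 34317 to 40710 in ALDH-high erlotinib, 39394 to 41831 in PC9 and 42204 to 45241 in DTP. Its part in the differences was measured with counts per 10000 peaks and with lists cut to the 26225 highest-scoring peaks.

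After 12 h of erlotinib the sorted cells held more keratin regions than after DMSO. Libraries a, b and c held 18, 23 and 20 of the 91 in ALDH-low DMSO and 48, 45 and 43 in ALDH-low erlotinib. In ALDH-high cells the numbers were 38, 31 and 28 under DMSO and 48, 45 and 47 under erlotinib. Every erlotinib library lay above every DMSO library. The mean difference over both fractions was 19.7 regions (46.0 against 26.3), with an exact two-sided permutation p of 0.005 over 12 libraries, the smallest it can give, and 0.03 after Benjamini-Hochberg adjustment over the 30 tests of this family. Per 10000 peaks the difference was 3.28 (12.3 against 9.02, exact permutation p = 0.01, adjusted 0.0429), with 5 of 6 erlotinib libraries above all DMSO libraries. With equal list lengths it was 5.17 regions (26.8 against 21.7, exact permutation p = 0.02) and did not pass the adjustment (0.0667), so the raw number overstates the difference at equal length.

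**Figure D3:**
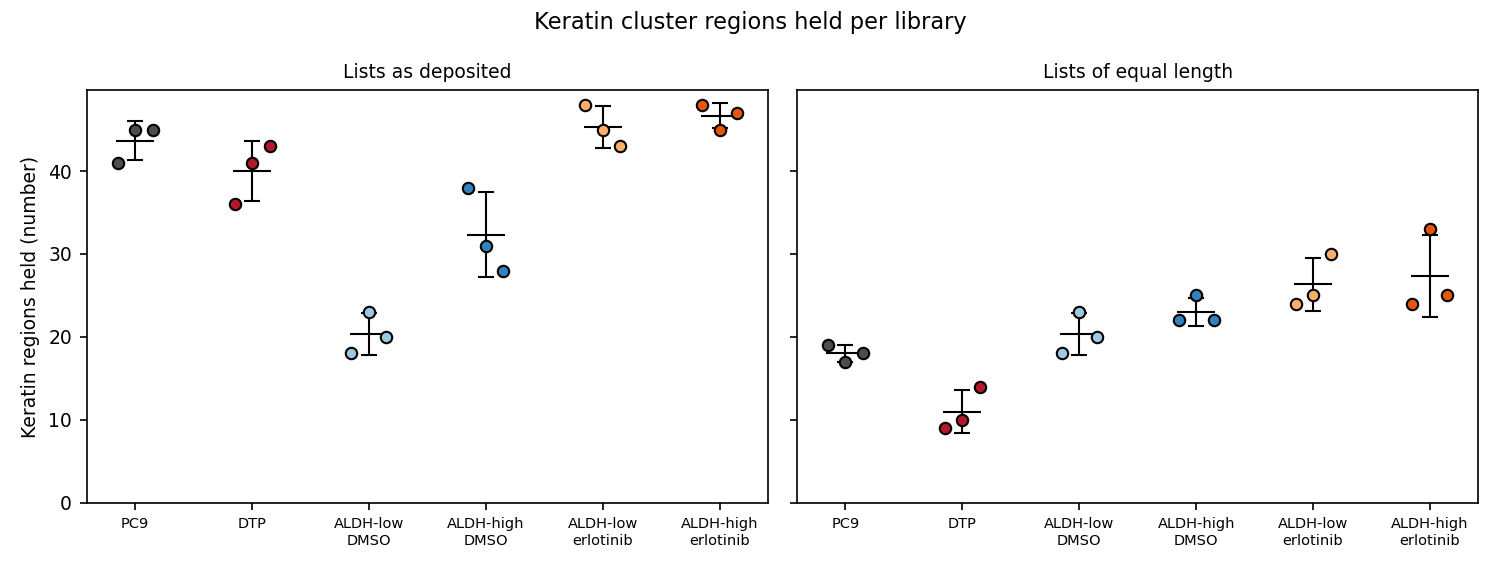
Keratin regions held in each library (points, a to c from left to right), with the mean (long bar) and SD of the 3 libraries per group. Left, lists as deposited; right, each list reduced to its 26225 highest-scoring peaks. DTP has the lowest points at equal length, 9 to 14, and the erlotinib groups the highest mean values in both panels.

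In bases under peaks on the lists as deposited, the difference under erlotinib passed the test in the end. It also passed in the rest of the type II window and in the type I window. The end's bases under peaks were 3.93%, 0.990% and 2.04% in ALDH-low DMSO and 6.32%, 5.26% and 1.34% in ALDH-high DMSO. With erlotinib they were 11.5%, 9.97% and 10.2% in ALDH-low and 10.5%, 10.1% and 8.88% in ALDH-high cells, all 6 above all DMSO libraries. That is a difference of 6.87 percentage points (10.2% against 3.31%, exact permutation p = 0.005, adjusted 0.03). The rest of the type II window rose by 1.54 points (3.31% against 1.77%) and the type I window by 0.627 points (1.42% against 0.797%), each with an exact permutation p of 0.005 (adjusted 0.03). In regions held, the end had 5.33 against 2.67 (exact permutation p = 0.01, adjusted 0.0429) and the type II window 31.8 against 17.3 (p = 0.005, adjusted 0.03), both by exact permutation. The type I window had 14.2 against 9 regions and did not pass (exact permutation p = 0.02, adjusted 0.0667). The end's share of the covered bases of the type II window was 24.4% against 15.9%, which did not pass (exact permutation p = 0.09, adjusted 0.2), so a larger relative gain in the end than in the rest was not shown. Over chromosomes 1 to 22 and X the covered share also differed, with group means of 0.956% and 1.12% under DMSO and 1.37% and 1.42% with erlotinib. At equal list length no window was tested separately. Mean type I regions held were then 6 (ALDH-low DMSO), 8.67 (ALDH-high DMSO), 8.33 (ALDH-low erlotinib) and 8 (ALDH-high erlotinib), so not higher under erlotinib in ALDH-high cells. In the same order the end had 2, 1.67, 3 and 3.33 regions and the type II window 14.3, 14.3, 18 and 19.3.

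**Figure D4:**
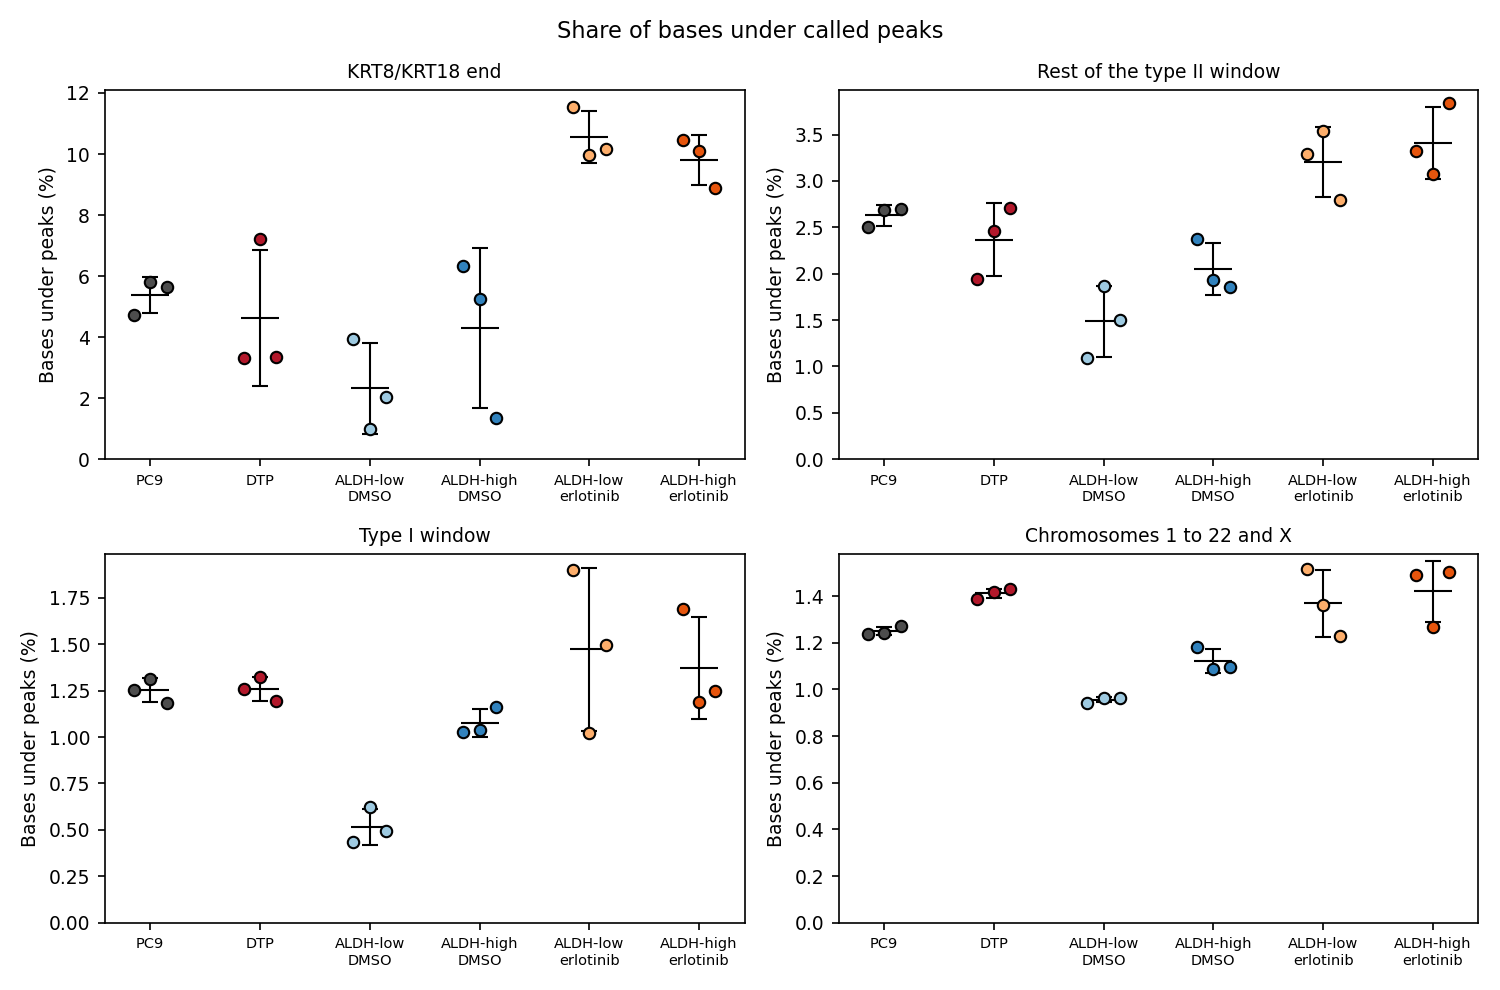
Share of bases under peaks in each library (points), with mean (long bar) and SD of 3 libraries per group, for the KRT8/KRT18 end, the rest of the type II window, the type I window and chromosomes 1 to 22 and X; each panel has its own scale from 0. In the end the 6 erlotinib libraries sit between 8.88% and 11.5% and all others at or below 7.20%.

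A region counted as gained where it was held by every library of the group named first and by no library of the other, and as lost where this was reversed. With 3 libraries against 3 an exact permutation p cannot go below 0.1, so single regions carry no test. The comparisons among the sorted groups share libraries and are not independent. In ALDH-low cells erlotinib gained 9 of the 65 keratin regions present in either group (background over all regions 6.82%) and lost 0 (background 0.887%). Besides chr12:53338971-53340342 and chr12:53363242-53364762 these were chr12:52596810-52597823, chr12:52739341-52740241, chr12:52913642-52914806, chr12:53272844-53274307, chr17:39065311-39066637, chr17:39573577-39574527 and chr17:39683844-39685796. Among these 7, chr17:39573577-39574527, at 42.3, 30.1 and 34.8, and chr12:52913642-52914806, at 43.0, 26.5 and 29.6, were the strongest in their weakest library. With equal list lengths 2 regions were gained (3.39% of all regions) and 1 was lost (2.76%), of 51, which is near that background. Without ALDH-low erlotinib c 14 were gained, but fewer libraries then had to meet the rule, and the share over all regions is not given.

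In ALDH-high cells erlotinib gained 4 of 72 keratin regions (background 4.52%) and lost 1 (background 0.998%), which is near the background. The gained were chr12:53338971-53340342, chr12:53363242-53364762, chr12:53253551-53254586 (26.8, 18.8 and 12.5) and chr12:52623739-52626186 (14.7, 55.0 and 3.75). The lost region was chr17:39516621-39517517, at 10.1, 25.7 and 22.1 under DMSO, which was also called in 2 PC9 and 2 DTP libraries. At equal list length 3 were gained (3.00% of all regions) and 0 lost (2.42%), of 50. Gained and lost regions together numbered 10 without ALDH-high DMSO a or without ALDH-high DMSO b. Fewer libraries then had to meet the rule, and the share over all regions is not given. Over both fractions together 2 of 80 were gained (background 1.55%) and 0 lost (background 0.160%), and 1 was gained (0.940% of all regions) and 0 lost (0.692%), of 63, at equal length.

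The erlotinib difference could itself differ between fractions, and this was tested. Erlotinib minus DMSO was 25 regions for ALDH-low and 14.3 for ALDH-high cells, a difference of 10.7 (exact permutation p = 0.1, adjusted 0.25 over 10 such tests). For the end's bases under peaks it was 8.24 and 5.50 points (exact permutation p = 0.155, adjusted 0.31).

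Persisters did not hold more keratin regions than PC9. PC9 a, b and c held 41, 45 and 45, and DTP 36, 41 and 43, although DTP had the longer lists. The difference of −3.67 regions had an exact permutation p of 0.3 (adjusted 0.409), where 0.1 is the smallest possible. Per 10000 peaks every DTP library (8.53, 9.14 and 9.50) lay below every PC9 library (10.2, 11.4 and 10.8), and at equal list length the numbers were 9, 10 and 14 against 19, 17 and 18. Both differences, −1.74 and −7, have an exact permutation p of 0.1, the smallest this design allows (adjusted 0.2). Bases of the end under peaks were 4.72%, 5.81% and 5.64% in PC9 and 3.31%, 7.20% and 3.36% in DTP (difference −0.768 points, exact permutation p = 0.7), and DTP b stood above all PC9 libraries. Type I regions numbered 16 in each PC9 library and 14, 17 and 16 in DTP.

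DTP gained 2 of 72 keratin regions (background 6.75%) and lost 3 (background 3.68%). The gained were chr12:53288586-53291132 in the end and, a short way before it, chr12:53253551-53254586, at 45.7, 39.0 and 33.7 in DTP and absent from PC9 and from both DMSO fractions. Lost were chr12:53299698-53300836 and chr12:53350560-53351412 in the end and chr12:52834386-52835772, at 26.7, 20.0 and 56.7 in PC9. The gained share (2.78%) lay below that of all regions and the lost share (4.17%) near it. In the end, 1 region was gained, at percentiles down to 0.47 in DTP. There 2 were lost, at percentiles down to 4.31 and 0.28 in PC9, so these calls reach the bottom of the lists. Equal list lengths left 0 gained (5.47% of all regions) and 2 lost (5.03%), of 37. Gained and lost together numbered 9 without DTP a or without DTP c, by a rule that fewer libraries had to meet. The share over all regions is not given for those counts. The 12 h and 8-day arms differ in sorting as well as in time, so their values stand side by side with no test between them.

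ALDH-high cells held more keratin regions than ALDH-low cells before adjustment only: 6.67 more on average (39.5 against 32.8, exact permutation p = 0.035, adjusted 0.105). Under DMSO, where the ALDH-high lists are the longer ones, the group means were 32.3 ± 5.13 and 20.3 ± 2.52 (SD, n = 3 libraries), and under erlotinib 46.7 ± 1.53 and 45.3 ± 2.52. At equal list length the difference over both treatments was 1.83 regions (exact permutation p = 0.38). In the end it was 0.617 points of cover (exact permutation p = 0.535), and the fractions overlapped.

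By region, ALDH-high gained 2 of 55 over ALDH-low under DMSO (background 1.28%) and lost 0 (background 0.140%). These were chr17:39516621-39517517 and chr17:39573577-39574527 (23.1, 33.6 and 32.8), both in the type I window. Under erlotinib it gained 2 of 71 (background 0.893%) and lost 0 (background 0.446%). Those were chr12:53192708-53193635, at 43.0, 27.9 and 21.7, and chr17:39655982-39657114, at 35.5, 12.3 and 38.9, both of which all 3 PC9 libraries held too. No keratin region was gained or lost under both treatments, of 80 (background 0.0186% and 0%). At equal list length 1 was gained under DMSO, of 46 (0.517% of all regions), and 2 under erlotinib, of 47 (0.841%). None was lost in either (0.428% and 0.660% of all regions). The total under DMSO was 4 without ALDH-low DMSO c or ALDH-high DMSO b and 5 without ALDH-high DMSO c, and under erlotinib 4 to 6 without ALDH-low c or any 1 ALDH-high library. In these totals fewer libraries had to meet the rule, and the share over all regions is not given.

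Score ranks were compared among regions held by every library of a comparison, which removes the effect of list length but keeps only the steady regions. Ranks were turned into normal scores and tested with limma over all such regions, with Benjamini-Hochberg adjustment. In DTP against PC9, 17 keratin regions were among the 24186 tested, and 1 changed. chr17:39685933-39687199 fell by 1.33 normal-score units (SE 0.295, limma adjusted p = 0.0153), from percentiles among the common regions of 38.3, 16.2 and 35.0 in PC9 to 7.06, 2.73 and 1.20 in DTP. The groups did not overlap, but no keratin region passed with percentiles in place of normal scores, or without PC9 a, PC9 c, DTP b or DTP c. None passed with a score of at least 100 or at equal list length either. There, only regions still held by every library were tested. At equal list length chr17:39685933-39687199 was cut from the DTP lists, at within-list percentiles of 23.3, 14.0 and 7.42, and so was not tested. Over all regions 6.52% were higher and 7.96% lower, and the median difference was −0.23 in the keratin regions against 0.02 in all. At an unadjusted p under 0.05, 1 keratin region was higher and 4 were lower in DTP. The 1 region of the end tested, chr12:53318543-53321785, differed by 0.10 (SE 0.294, limma adjusted p = 0.852).

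In erlotinib against DMSO, 7 keratin regions were among the 14705 held by all sorted libraries, and 2 changed, against 7.83% higher and 8.85% lower over all. chr12:52836016-52837290 fell by 1.05 units (SE 0.318, limma adjusted p = 0.0289), from a mean percentile of 29 to 6.17. Its DMSO libraries stood at 1.94, 36.5 and 31.7 (ALDH-low) and 39.4, 44.6 and 20.1 (ALDH-high), and its erlotinib libraries at 0.129, 6.68 and 6.99 and at 3.74, 5.85 and 13.6. ALDH-low DMSO a was the only DMSO library in the range of the erlotinib libraries. chr12:53399510-53401255, at the window's edge, rose by 1.08 units (SE 0.283, limma adjusted p = 0.0133), from 6.96 to 32.7. Its erlotinib libraries stood at 47.7, 6.20 and 44.2 and at 26.1, 47.5 and 24.5 and its DMSO libraries at 0.456 to 11.9, so ALDH-low erlotinib b overlapped them. Neither passed with a score of at least 100, where only regions still held by every sorted library were tested. chr12:53399510-53401255 passed at equal list length (limma adjusted p = 0.0314) and with each library left out. chr12:52836016-52837290, at a within-list percentile of 4.17 in ALDH-low erlotinib a, was cut from that list at equal length and so was not tested. It did not pass without ALDH-low DMSO b or c, ALDH-high DMSO a or b, ALDH-low erlotinib a, or ALDH-high erlotinib a or b. With 50% of a region covered or by midpoint, only chr12:52836016-52837290 passed (limma adjusted p = 0.0292 and 0.0289). By midpoint chr12:53399510-53401255 falls outside the window. Without ALDH-high erlotinib b, chr17:39677169-39679454 passed too (higher by 0.90, limma adjusted p = 0.0239). None of the end's regions was held by all sorted libraries, so none was tested. In ALDH-high against ALDH-low 0 of the 7 keratin regions passed (background 0% higher and 0% lower by limma, and 0 keratin regions at an unadjusted p under 0.05).

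**Figure D5:**
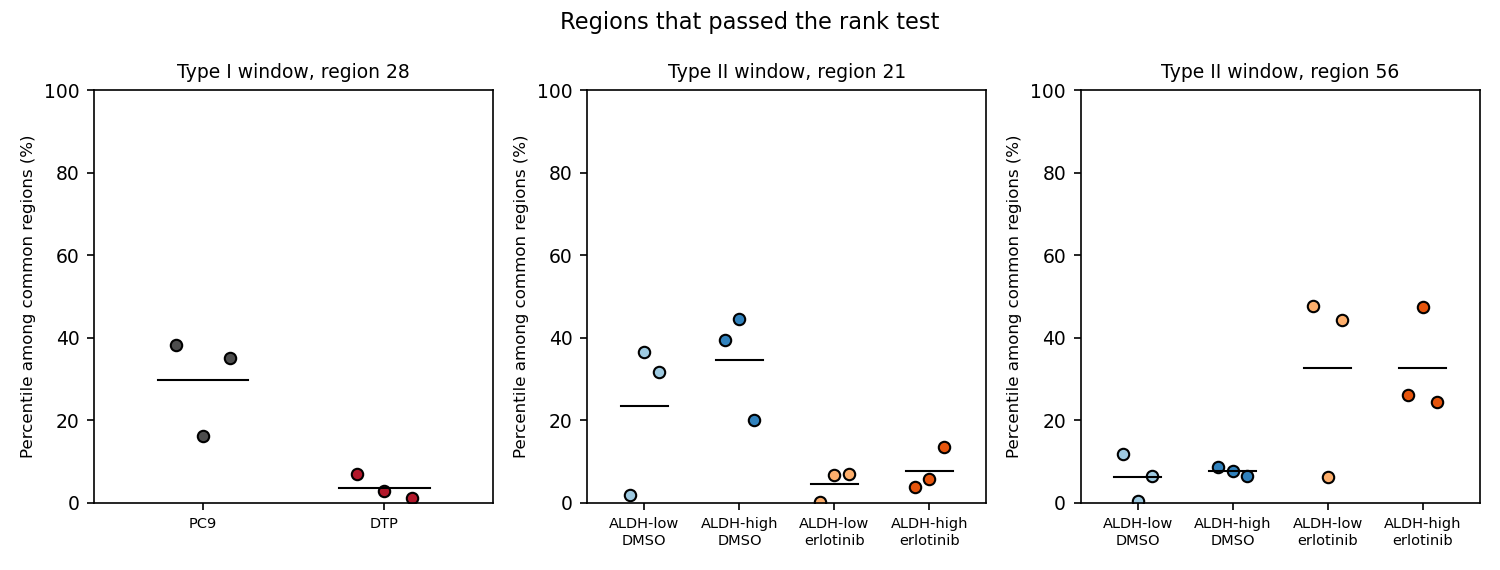
The 3 keratin regions past the rank test, each library's score percentile among the regions common to the comparison (points, a to c from left to right) with the group mean (bar). From left to right: chr17:39685933-39687199 in PC9 and DTP, then chr12:52836016-52837290 and chr12:53399510-53401255 in the sorted groups; DTP lies below PC9 in every library, while 1 library overlaps in each of the other panels.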

How the data were processed

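ATAC-seq peak lists of 18 PC9 libraries, 1 list per library and not pooled, were analysed. Per the submitters' processing notes the authors used BWA, MACS 1.4.2 and hg19. Trimming, duplicate removal, read shift and calling parameters: not given in the sources used here. Every deposited peak has a score from the authors, whose scale is not stated and whose lowest value is 70, so scores were used only as ranks within a list. Read depth is unknown, and no library pair had identical lists.

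Peaks on 23 chromosomes were merged across libraries at 1 shared bp, as checked against bedtools 2.31.1. Numbers held and bases covered were compared by exact two-sided permutation (20 assignments for PC9 and DTP, 400 within strata for 12 sorted libraries). Ranks were tested with limma 3.58.1 in R 4.3.3, and the rest used Python 3.11.15. Both procedures were tested on simulated data. The threshold was an adjusted p of 0.05. The windows, lists and comparisons were chosen with earlier results of these data known.

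Named regions are those of the KRT8/KRT18 end, those held by all 18 libraries, those gained or lost, those past the rank test, and the best-held of each 50-kb bin. Same-lettered libraries did not deviate together in score rank (correlations of −0.019 to 0.014 over the common regions), so the main tests did not pair them. The labels do not say whether same-lettered libraries were prepared together, and these correlations cannot tell. Alternatives were a score of at least 100, equal list length, at least 50% of a region covered, midpoint in the window, percentiles in place of normal scores, each library left out and a replicate block. Counts per 10000 peaks, each window alone and the end's share of cover were added after seeing the data.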

Additional observations from a re-analysis of the deposited data

Results flagged for a closer look

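The erlotinib difference in keratin regions per 10000 peaks was larger in ALDH-low than in ALDH-high cells, at 4.73 against 1.83 regions, a difference of 2.89. The exact permutation p was 0.045 before adjustment and 0.25 after Benjamini-Hochberg adjustment over 10 such differences. At equal list length the difference between fractions was 1.67 regions (exact permutation p = 0.725).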

How the results depend on the processing

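The erlotinib excess in regions held was 2.67 (the end alone) to 21.1 regions in its 21 alternatives, with unadjusted exact permutation p between 0.005 and 0.03125; at equal list length and in the type I window alone the adjusted p was 0.0667. The difference between DTP and PC9 stayed below 0 in 15, from −7 to −0.333 regions. The ALDH difference missed an unadjusted p of 0.05 in 11 of 21: it was 4.17 with a score of at least 100, 1.83 at equal list length, 6.5 with 50% cover, 6.67 with the replicate block (exact permutation p = 0.125), 1.16 per 10000 peaks, and 3.83, 2.83 and 1 in the type II window, the type I window and the end alone; leaving out a library gave 5.25 to 7.75. The block changed no other call, with the erlotinib excess judged by its unadjusted exact permutation p of 0.03125. No adjusted p is given for it under the block. Regions gained or lost in DTP numbered 3 with a score of at least 100, 2 at equal length and 5 to 9 with a library left out, 9 without DTP a or without DTP c. For ALDH-low cells they numbered 3 at equal length and 10 to 14 with a library left out (14 without ALDH-low erlotinib c), and in ALDH-high cells 3 at equal length and 6 to 10 with a library left out (10 without ALDH-high DMSO a or b). For the ALDH fractions under DMSO they were 1 with the higher score and at equal length and 2 to 5 with a library left out (4 without ALDH-low DMSO c or ALDH-high DMSO b, 5 without ALDH-high DMSO c), and under erlotinib 1 with the higher score, 4 with 50% cover and 2 to 6 with a library left out (4 without ALDH-high a, 5 without ALDH-low c or ALDH-high b, 6 without ALDH-high c). Over both fractions 1 was left at equal length, and over both treatments 0 to 1 with a library left out (1 without ALDH-high DMSO c). With a library left out a group has fewer libraries to meet the rule. Shares over all regions are given only for the main setting and at equal length. Rank changes in DTP numbered 0 with the higher score, at equal length and as percentiles, and 0 to 2 with a library left out (2 without DTP a, 0 without PC9 a, PC9 c, DTP b or DTP c). Rank changes with erlotinib numbered 0 with the higher score, 1 at equal length, with 50% cover or by midpoint, and 1 to 2 with a library left out (1 without a in any sorted group but ALDH-low DMSO, or without b in either DMSO group, or without ALDH-low DMSO c). The cause of these changes was not tested. The region left with erlotinib was chr12:53399510-53401255 at equal length and chr12:52836016-52837290 with 50% cover or by midpoint. A region not held by every library under a setting had no rank test there. Unknown depth limits every absence.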
